A study of Mus musculus with 8 samples.

Results

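Homeobox genes encode transcription factors that bind DNA through a homeodomain. The genes described here are the developmental homeobox genes outside the Hox clusters, in 12 families: Barx, Dlx, Emx, Gbx, Gsx, Irx, Lhx, Msx, Nkx, Pitx, Vax and that of Six2 to Six6. Members were chosen by symbol, as protein-coding genes of the autosomes in GENCODE vM21 named by 1 of 11 family names plus a number, or beginning Nkx. This gave 56 of 20807 genes, and their starts fell in 52 of the 13301 bins of 50 kb that hold a gene start. Of these, 4 bins held 2 members each, among them those of Dlx1 and Dlx2, of Dlx5 and Dlx6 and of Dlx3 and Dlx4, and the 52 bins lay on 14 of 19 autosomes.

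In the embryo these factors pattern tissues far from the blood. Dlx, Msx and Barx genes act in the jaws, teeth and limbs, Gsx, Emx, Vax and Gbx genes in the brain, and Lhx genes in neurons, limbs and pituitary. Nkx genes act in the heart, thyroid, gut and ventral neural tube, Six2 and its relatives in the eye, muscle and kidney, Pitx genes in the pituitary, hindlimb and lens, and Irx genes in the heart and nervous system. Many are kept silent outside their own tissue by Polycomb group proteins, which bind CpG-rich DNA and deposit histone H3 lysine 27 trimethylation. B cells are not a tissue in which these families are known for their main roles, and neither RNA nor histone marks were part of the data used here.

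In situ HiC counts pairs of restriction fragments that lay close enough in the nucleus to be ligated. It was applied to splenic B cells of male C57BL/6 mice (C57BL/6 Pep3b in the study's methods), 6 to 12 weeks old, isolated by negative selection, labelled with the division dye CellTrace Violet (CTV) and cultured with 25 μg/ml lipopolysaccharide (LPS) of Salmonella typhosa, a bacterial product that activates B cells and drives them to divide. The 8 libraries formed 4 groups of 2 biological replicates. At 3 h, 10 h and 33 h (imminent division), activated cells that had not yet divided were sorted by a gate that took TCRβ- CD69+ cells with the highest CTV. The pre-S group was sorted at 33 h from FUCCI transgenic mice, whose reporters follow the cell cycle, by a gate that took CD69+ mAG- mKO2hi cells with the highest CTV, which are cells before S phase. The reporter strain and the gate of that sort cannot be told apart from the pre-S group itself. HiC reads genomic DNA and holds no expression, so the cell type could not be checked against marker genes.

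The libraries held 88703088 to 218945191 read pairs, the deepest 2.47 times the shallowest. Only autosomes were used. The share of read pairs with both ends on autosomes was 95.1% in the second imminent division library and 96.0% to 96.7% in the other 7, so that library stood apart in its reads off the autosomes, such as those of X and Y. Its values are given by themselves below, so that the first imminent division library shows the same group without it.

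The sequence around the starts of these genes was rich in CG dinucleotides, which cluster in CpG islands. RefSeq promoter windows (GRCm38.p6, 250 bases before to 50 after the start) were found for 39 of the 56 members. They held 4 to 50 CG each, with a median of 21, against a median of 7 over the first listed promoters of 27025 genes. That is a wider set than the 20807 autosomal protein-coding genes from which the members were chosen. All 39 held at least 1 CG, as did 94.2% of all promoters, and 20 or more were found in 56.4% of the member promoters and 26.8% of all. A CG reads the same on both strands and is counted once. Upstream sequences are shown for 6 genes, 5′ to 3′ on the gene's strand and ending at the start, with each CG in capitals. They are Nkx2-4 (chr2:147085446-147085595, minus strand, 12 CG), the partner in the one member pair that passed the genome-wide test, and Lhx2 (chr2:38339031-38339280, plus strand, 25 CG) and Dlx2 (chr2:71546755-71547004, minus strand, 24 CG), which met across 33.2 Mb. Msx1 (chr5:37824586-37824835, minus strand, 20 CG) and Gsx1 (chr5:147188446-147188695, plus strand, 15 CG) stand for chromosome 5. Lhx8 (chr3:154330660-154330810, minus strand, 3 CG) is shown as the poorest in CG of these 6 windows. Its whole promoter window held 4 CG, the lowest number among the 39 members with an entry. The sequences of Nkx2-4 and Lhx8 run over 150 and 151 bases and the others over 250. Their CG counts are therefore not over equal lengths. In the whole windows the counts were 38 for Nkx2-4, 34 for Lhx2, 29 for Dlx2, 29 for Msx1 and 19 for Gsx1.
Nkx2-4: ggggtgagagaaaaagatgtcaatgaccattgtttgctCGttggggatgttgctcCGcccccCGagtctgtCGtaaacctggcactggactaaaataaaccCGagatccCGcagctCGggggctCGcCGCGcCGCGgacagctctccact
Lhx2: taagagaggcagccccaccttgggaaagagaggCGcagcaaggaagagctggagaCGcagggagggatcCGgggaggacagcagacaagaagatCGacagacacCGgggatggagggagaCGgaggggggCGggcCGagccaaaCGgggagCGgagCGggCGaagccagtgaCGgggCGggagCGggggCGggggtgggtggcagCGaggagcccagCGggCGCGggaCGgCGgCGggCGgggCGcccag
Dlx2: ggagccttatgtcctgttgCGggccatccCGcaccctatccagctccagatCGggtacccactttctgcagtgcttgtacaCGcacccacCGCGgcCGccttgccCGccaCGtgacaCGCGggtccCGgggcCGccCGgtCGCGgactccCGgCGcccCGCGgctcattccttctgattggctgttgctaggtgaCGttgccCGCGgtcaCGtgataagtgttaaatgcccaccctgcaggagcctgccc
Msx1: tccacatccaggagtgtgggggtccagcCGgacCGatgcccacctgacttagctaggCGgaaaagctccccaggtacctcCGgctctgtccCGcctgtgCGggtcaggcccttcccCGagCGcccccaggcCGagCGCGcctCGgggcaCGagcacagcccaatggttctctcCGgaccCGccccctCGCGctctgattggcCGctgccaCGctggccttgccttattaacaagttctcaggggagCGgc
Gsx1: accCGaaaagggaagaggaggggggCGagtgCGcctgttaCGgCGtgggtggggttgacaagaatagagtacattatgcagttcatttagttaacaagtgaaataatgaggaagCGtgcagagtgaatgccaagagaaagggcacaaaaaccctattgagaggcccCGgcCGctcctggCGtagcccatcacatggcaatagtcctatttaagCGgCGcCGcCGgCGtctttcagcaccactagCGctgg
Lhx8: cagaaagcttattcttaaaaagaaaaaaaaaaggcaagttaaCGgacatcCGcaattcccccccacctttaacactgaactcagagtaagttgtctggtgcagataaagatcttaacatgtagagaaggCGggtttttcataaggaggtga

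The bins differed from those of other genes in composition as well. Their median CpG density was 15.9 per kb, against 11.0 in the 13249 other gene-start bins, and their median G+C content was 47.0% against 44.0%. Their interchromosomal coverage was lower, at a median of 0.848 of the level of all gene-start bins, and they held about as many MboI fragments (119.5 against 123 per bin). A/B compartments are the active and inactive divisions of the genome seen in HiC, scored here by the first principal component of each library at 100 kb, with A positive. Of the 52 bins, 34 (65.4%) lay in A, against 75.8% of the other gene-start bins and 46.9% of all bins kept. The 6 Irx genes lay between -1.34 and 0.11 on this score, all in B except Irx5, whereas both Gsx genes (0.77 and 1.03) lay in A. Each library placed 33 or 34 member bins in A.

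The first question was whether these bins met each other more often than distance and coverage alone would give, and whether this moved between 3 h and the eve of division. There were 1326 pairs of member bins, of which 82 lay on 1 chromosome 2 Mb or more apart (long-range cis), 1229 lay on different chromosomes and 15 within 2 Mb. For cis pairs the expected count was the mean of all kept bin pairs at the same distance on that chromosome in that library. For interchromosomal pairs it came from the interchromosomal coverage of both bins. These summed ratios carry no test, and their intervals are exact Poisson at 95%. The intervals cover counting error only, and in the absence of molecular identifiers a read pair need not be a separate molecule.

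Long-range cis contacts among the members were more frequent than expected in all 8 libraries. Over all libraries 953 read pairs were seen against 592.3 expected, a ratio of 1.61 (1.51 to 1.71). The ratio was 1.54 and 1.33 in the 3 h libraries, 1.53 and 1.38 at 10 h, 1.79 and 1.94 in imminent division, and 1.77 and 1.53 in pre-S. Both imminent division libraries were above every library of the 2 early times, whereas the lower pre-S library was level with the higher early ones. As group means this was 1.43 ± 0.144 (SD, n = 2) for 3 h, 1.46 ± 0.107 for 10 h, 1.86 ± 0.107 for imminent division and 1.65 ± 0.169 for pre-S. All gene-start bins as 1 set had a ratio of 1.32, which ranged from 1.22 to 1.40 and was lower in the pre-S libraries (1.22 and 1.23) than in the others. The ratio of the members was above that of all gene-start bins in 7 of 8 libraries, the exception being the second 3 h library (1.33 against 1.34). Its interval lay wholly above the level of all gene-start bins in 3 libraries, both of imminent division and the first of pre-S.

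**Figure D1:**
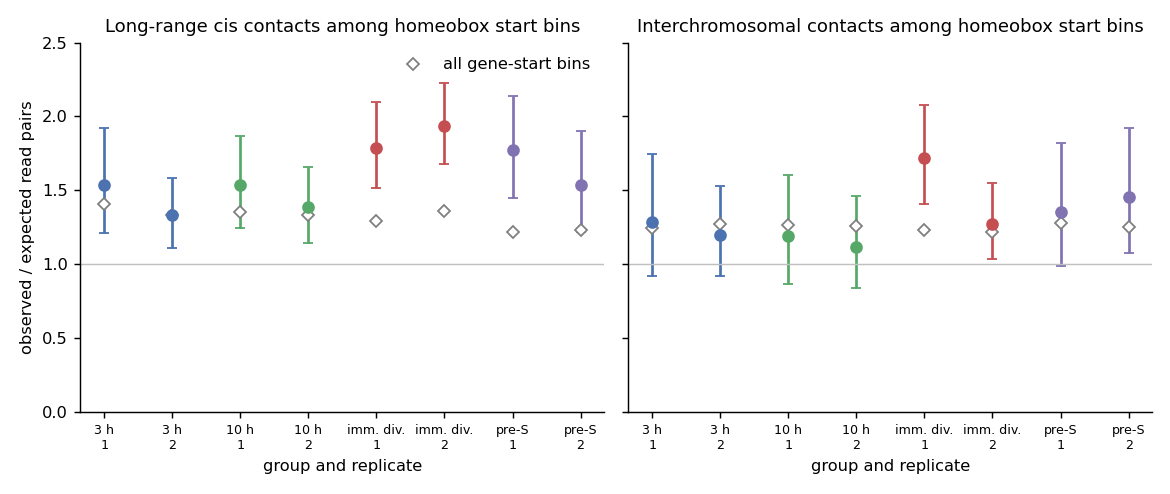
Observed over expected read pairs among the 52 homeobox bins in each of the 8 libraries, for long-range cis and interchromosomal pairs, with exact Poisson 95% intervals for the members and the ratio over all gene-start bins for comparison. In cis the libraries run from 1.33 to 1.94 with both imminent division libraries highest, and between chromosomes from 1.12 to 1.72.

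Part of this excess was shared with the compartment and the long-range cis coverage of the bins. When the expected count was taken from bin pairs of the same compartment quintiles (5 classes of 20% of the bins by score), the ratio was 1.25 and 1.14 in the 3 h libraries, 1.29 and 1.17 in those of 10 h, 1.57 and 1.62 in imminent division, and 1.64 and 1.41 in pre-S. In another form the expected count was scaled by the long-range cis coverage of both bins, without the quintiles. That coverage is a bin's own cis contacts 2 Mb or more away over those expected from distance. It is not the interchromosomal coverage given above. On this scale the ratio was 1.07 and 1.02 at 3 h and 1.13 and 1.04 at 10 h. It was 1.46 and 1.46 in imminent division and 1.54 and 1.23 in pre-S. On these 2 scales the 4 early libraries lay below the 4 libraries at 33 h without overlap, and both pre-S libraries were among the high ones. They overlapped as first given (1.33 to 1.54 against 1.53 to 1.94), in windows of 3 by 3 bins (1.43 to 1.52 against 1.47 to 1.64), for pairs at least 5 Mb apart (1.38 to 1.70 against 1.51 to 1.94) and with 1 bin per neighbourhood (1.37 to 1.65 against 1.53 to 1.97). For pairs at least 1 Mb apart they did not overlap (1.251 to 1.457 against 1.545 to 1.892). The difference of imminent division and 10 h, 0.403 as first given, was 0.0925 in the windows.

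The excess was broad rather than sharp at 3 h and 10 h. The 8 bin pairs that surround each member pair had a ratio of 1.44 to 1.52 in the early libraries and 1.46 to 1.61 in the 33 h libraries. The ratio of the member pairs over that of their surroundings was 1.01 and 0.926 after 3 h, 1.03 and 0.931 after 10 h, 1.21 and 1.21 in imminent division and 1.17 and 1.05 in pre-S. The early libraries lay at 0.926 to 1.03 and the 33 h libraries at 1.05 to 1.21. These values carry no interval, and the second pre-S library (1.05) was close to the highest early one (1.03). A list of 33 other developmental factors, described below, had 1.27 to 1.62 early and 1.08 to 1.51 at 33 h. The comparison with the surroundings was added after the data had been seen.

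**Figure D2:**
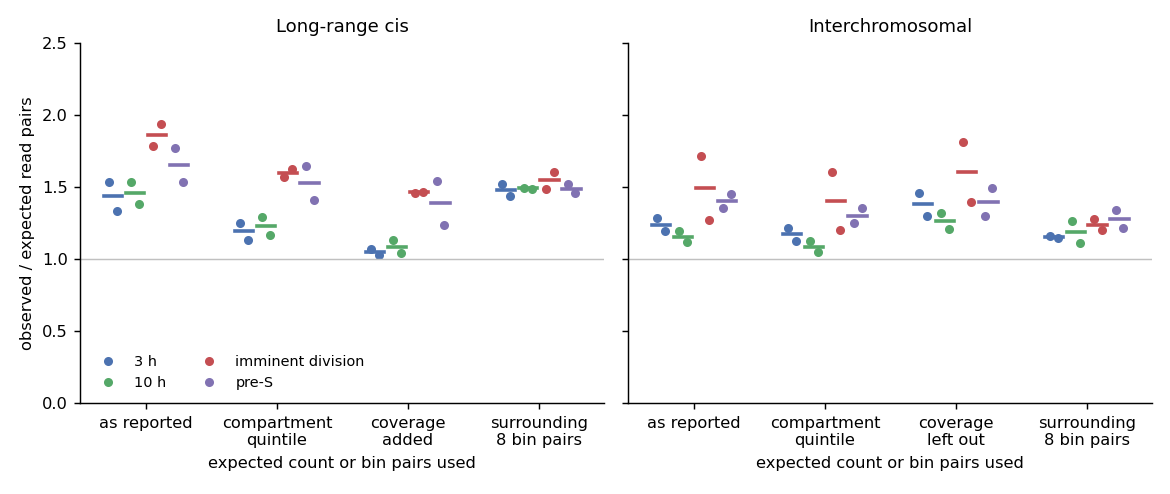
Long-range cis and interchromosomal ratios of the homeobox bins under different ways of taking the expected count, with 1 point per library. With each bin's long-range cis coverage in the expected count the 4 early libraries fall to 1.02 to 1.13 in cis. The 33 h libraries stay at 1.23 to 1.54.

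The cis excess did not hang on 1 range of distances. It was 1.62 for pairs 2 to 10 Mb apart, 1.56 for 10 to 50 Mb and 1.70 beyond 50 Mb. By family, the Lhx genes had a ratio of 2.21 (1.97 to 2.46) to all members in cis and the Dlx genes 2.04 (1.64 to 2.51), while Emx (0.647, 0.362 to 1.07) and Vax (0.700, 0.408 to 1.12) were at or below 1. Pairs within 1 family (1.67) and between families (1.60) were alike within their intervals. By chromosome the ratio was 2.49 for the 1 pair on chromosome 11, 2.34 on chromosome 7, 2.02 on chromosome 2, 1.70 on chromosome 13, 1.65 on chromosome 12 and 1.54 on chromosome 5. It was below 1 on chromosome 19 (0.695), chromosome 6 (0.251) and chromosome 17 (0.0912).

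The ratio differed by the compartment of the 2 bins. The score was derived from the same cis contacts, so a higher ratio in pairs of 1 compartment than in mixed pairs is built in. Values of all gene-start bins in these classes are not given here. The 41 cis pairs with both bins in A had a ratio of 1.87 (1.73 to 2.03), and the 39 pairs with 1 bin in each had 1.10 (0.981 to 1.24). The 2 pairs with both bins in B had 68 read pairs against 9.69 expected, a ratio of 7.02 (5.45 to 8.90). The mixed pairs went from 0.895 (0.683 to 1.15) at 3 h and 0.933 (0.719 to 1.19) at 10 h to 1.29 (1.05 to 1.56) in imminent division and 1.31 (1.01 to 1.67) in pre-S.

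Of the 82 long-range cis pairs, 49 had an expected count of at least 5 over all libraries. Among these, 31 had a ratio above 1 and the median was 1.29. In 20 the interval lay wholly above 1 and in 6 wholly below. The matching shares of all gene-start bin pairs are not given here. All gene-start bins as 1 set had a ratio of 1.32, so counts above 1 do not by themselves set the member pairs apart.

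One of the pairs with both bins in B was Msx1 and Nkx6-1, which lie 63.85 Mb apart on chromosome 5. Msx1 acts in teeth, palate and limb, and Nkx6-1 in pancreatic beta cells and ventral neural tube. Its expected count of 3.59 was below the limit of 5, and it was chosen here after its values were seen. It had 0 and 1 read pairs after 3 h, 4 and 4 after 10 h, 6 and 6 in imminent division and 1 and 3 in pre-S, with a ratio of 6.97 (4.51 to 10.3) over all libraries.

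On chromosome 5, Lhx5 and Gsx1, both genes of the developing brain, had 24 read pairs against 6.19 expected across 26.75 Mb, a ratio of 3.88 (2.48 to 5.77). Their counts were 5 and 3 in the 3 h libraries, 3 and 2 in those of 10 h, 5 and 3 in imminent division, and 2 and 1 in pre-S. These counts showed no order by time.

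On chromosome 2, Lhx2, which acts in the cortex, eye and limb, met the bin of Dlx1 and Dlx2, genes of forebrain interneurons, 33.2 Mb away. It did so in 0 and 1 read pairs after 3 h, 1 and 4 after 10 h, 6 and 6 in imminent division and 2 and 3 in pre-S. Over all libraries this was 23 against 7.09 expected, a ratio of 3.24 (2.06 to 4.86), and by group 0.590, 2.81, 5.32 and 3.67. The imminent division libraries had the highest counts. Lhx3, a pituitary and motor neuron gene 45.3 Mb from the same Dlx bin, had 15 read pairs against 5.40, a ratio of 2.78 (1.55 to 4.58), of which 2 and 0 fell at 3 h, 3 and 0 at 10 h, 3 and 5 in imminent division, and 1 and 1 in pre-S.

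On chromosome 13, Barx1, a gene of the teeth and stomach, and Pitx1, which specifies the hindlimb, had 43 read pairs against 13.6 expected over 7.15 Mb, a ratio of 3.15 (2.28 to 4.25). The counts were 6 and 4 in the 3 h libraries, 4 and 6 in those of 10 h, 8 and 10 in imminent division, and 2 and 3 in pre-S. Irx4, a gene of the heart ventricle, met Pitx1 across 17.45 Mb with a ratio of 2.66 (1.63 to 4.12) and Msx2 across 19.8 Mb with a ratio of 2.37 (1.36 to 3.86). The Irx4 and Pitx1 counts were 0 and 2 after 3 h, 4 and 2 after 10 h, 2 and 2 in imminent division and 3 and 5 in pre-S. For Irx4 and Msx2 they were 3 and 4, 0 and 1, 1 and 4, and 2 and 1 in the same order. Neither pair ordered its libraries by time. On chromosome 11, Lhx1, a gene of kidney and head development, and the bin of Dlx3 and Dlx4 had 3 and 5 read pairs in the 3 h libraries, 2 and 2 in those of 10 h, 3 and 6 in imminent division, and 3 and 2 in pre-S, a ratio of 2.49 (1.62 to 3.64) over 10.6 Mb.

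**Figure D3:**
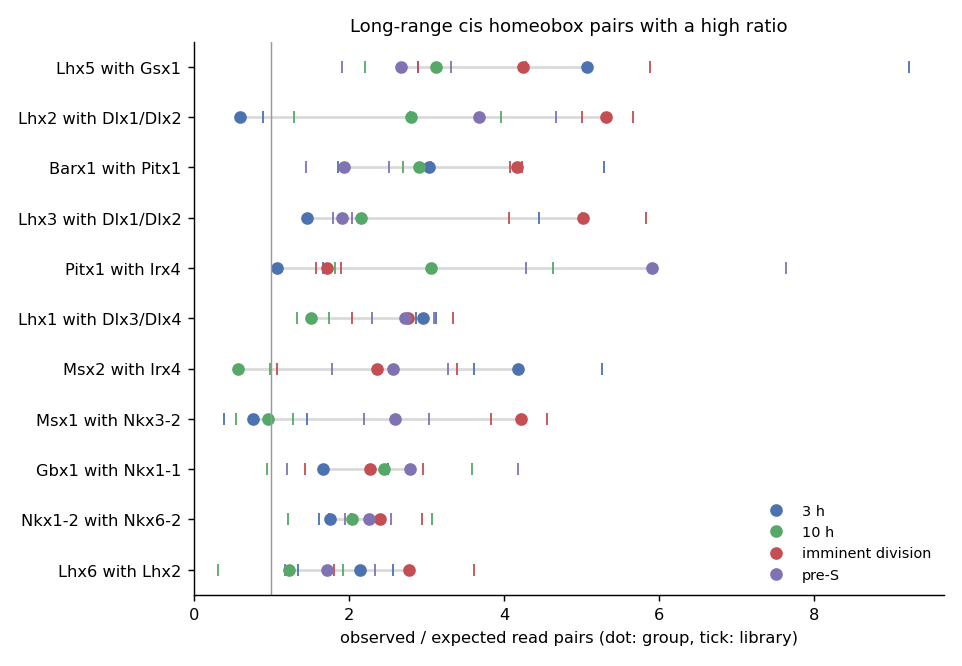
Observed over expected read pairs of 11 long-range cis pairs of homeobox bins with a high ratio, with a dot for each of the 4 groups and a tick for each library. Lhx2 with Dlx1/Dlx2 runs from 0.590 at 3 h to 5.32 at imminent division and Msx1 with Nkx3-2 from 0.761 to 4.22.

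Some member pairs met less than expected. Pitx3, which acts in the lens and in dopaminergic neurons, and Vax1, an optic stalk gene, had 0 read pairs in 8 libraries against 10.7 expected on chromosome 19, where 3 counts, the limit that a count of 0 allows, would give a ratio of 0.279. Pitx3 and Emx2 had 2 against 9.91, Barx1 and Irx2 had 0 against 5.80, the heart gene Nkx2-5 and Six2 had 0 against 5.51, and Nkx1-1 and Msx1 had 4 against 16.3. Each of these 5 pairs had 1 bin in A and 1 in B. The sixth, Nkx2-3 and Pitx3, had both bins in A and 19 read pairs against 31.0, a ratio of 0.613.

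Between chromosomes, too, members met more than coverage gave. Over all libraries 499 read pairs were seen against 375.1 expected, a ratio of 1.33 (1.22 to 1.45), close to the 1.25 of all gene-start bins. The ratio was 1.28 and 1.20 after 3 h, 1.19 and 1.12 after 10 h, 1.72 and 1.27 in imminent division and 1.36 and 1.45 in pre-S. The ratio was above that of all gene-start bins in 5 of 8 libraries, and its interval lay above that level only in the first imminent division library. The first imminent division library was highest, while the second was at the level of the higher 3 h library. The group means were 1.24 ± 0.0600 (SD, n = 2) for 3 h, 1.15 ± 0.0526 for 10 h, 1.49 ± 0.315 for imminent division and 1.40 ± 0.0680 for pre-S. The highest early library (1.28) lay just above the lowest of the 33 h libraries (1.27).

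These contacts were spread thinly. The expected count was 0.305 read pairs per pair of bins over all 8 libraries, and 863 of the 1229 pairs had none. The highest count was 5, between Lhx1 and Pitx3, against 0.921 expected, with 0 and 1 read pairs in the 3 h libraries, 1 and 0 in those of 10 h, 1 and 0 in imminent division, and 2 and 0 in pre-S. It was the only pair that reached the 5 read pairs set for naming. Pairs with both bins in B had a ratio of 1.97 (1.53 to 2.49), with both in A 1.54 (1.36 to 1.73), and with 1 in each 0.968 (0.823 to 1.13).

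Taken gene by gene, single bins had few contacts with the whole set. Lhx1 (35 read pairs against 19.8, 1.77, 1.23 to 2.46), Nkx1-1 (32 against 18.0, 1.77, 1.21 to 2.50) and Nkx6-2 (23 against 12.3, 1.86, 1.18 to 2.80) had the clearest interchromosomal excess. Irx2 was lowest, with 4 against 10.7 (0.373, 0.102 to 0.955), and the Irx family was the only one of the 12 under 1 (0.914, 0.699 to 1.17). Of the 52 bins, 45 had a ratio above 1, 10 had an interval wholly above 1 and 1 wholly below. The matching shares of other gene-start bins are not given here. The median ratio to the set was 1.34 for the 52 bins and 1.09 for 13186 other gene-start bins. A count of bins above 1 therefore does not by itself set the members apart. Within the Lhx family, 16 read pairs were seen against 6.78 on different chromosomes (2.36, 1.35 to 3.83), while the Nkx genes among themselves had 26 against 23.0 (1.13, 0.740 to 1.66).

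Other gene lists put these ratios in proportion. Contacts of the members with the Hox clusters, the homeobox genes that pattern the body axis, had a ratio of 1.68 (1.51 to 1.88) between chromosomes and 2.12 (1.93 to 2.31) in cis. Hox bins among themselves reached 3.89 (3.02 to 4.93) between chromosomes. Several other lists also met themselves more often, by ratio, than the members did (1.33 between chromosomes and 1.61 in cis), among them ribosomal protein genes (2.32 and 2.44), Pax genes (2.04 and 3.43) and 33 other developmental factors (1.45 and 2.31). Between chromosomes the intervals of Pax genes (1.09 to 3.50) and of the other developmental factors (1.25 to 1.67) overlapped that of the members (1.22 to 1.45). The Pax ratio in cis rested on 3 pairs of bins. The members had ratios of 1.28 with Pax genes, 1.28 with Tbx genes, 1.22 with Sox genes and 1.29 with the other developmental factors such as Otx, Zic, Foxa and Gata genes between chromosomes, and of 1.84, 1.88, 1.65 and 1.85 in cis. With the genes of cytoplasmic ribosomal proteins, active in all cells, they had 1.17 (1.11 to 1.22) and 1.47 (1.41 to 1.54).

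With B cell factors such as Pax5 and Ebf1 the members had a ratio of 1.08 (0.978 to 1.20) between chromosomes and 1.19 (1.04 to 1.36) in cis, although those factors met each other at 3.34 and 2.21. With olfactory receptor genes, which are silent outside the nose and lie mostly in B, the ratio was 0.903 (0.881 to 0.925) and 0.637 (0.622 to 0.653). The members' ratio to these 33 other developmental factors between chromosomes was 0.944 to 1.27 in the early libraries and 1.38 to 1.51 in the 33 h libraries, without overlap, whereas in cis the ranges overlapped (1.45 to 2.04 and 1.80 to 2.33). The ratio to olfactory receptors between chromosomes was 0.942 to 0.961 early and 0.816 to 0.909 at 33 h, and in cis the ranges again overlapped (0.619 to 0.668 and 0.565 to 0.669). Contact with Hox bins overlapped in both kinds, at 1.53 to 1.79 early and 1.28 to 1.91 at 33 h between chromosomes.

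**Figure D4:**
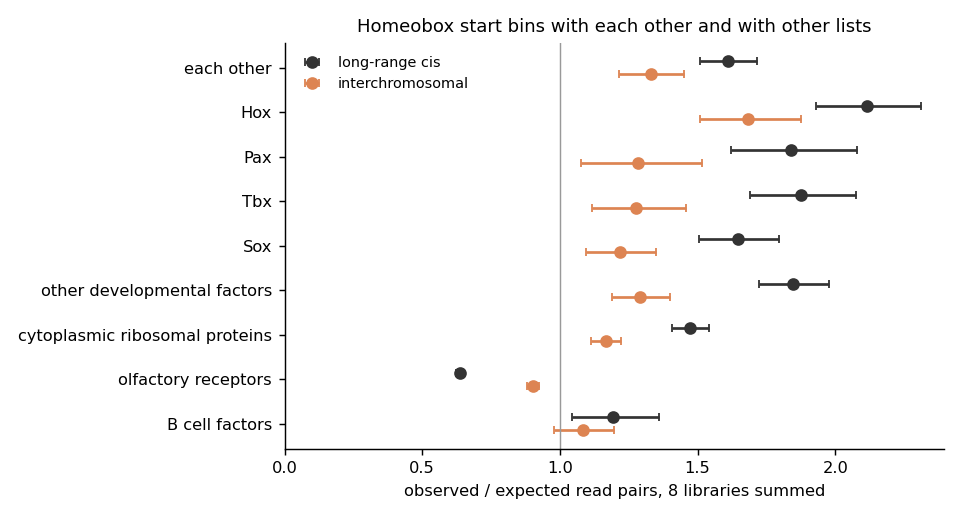
Observed over expected contacts of the homeobox bins among themselves and with each comparison list over all libraries, with exact Poisson 95% intervals. Hox clusters are highest and olfactory receptors lowest, the only list below 1.

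Ranked over 13186 other gene-start bins, the interchromosomal ratio to the member set had a median of 1.09 and a 99th percentile of 1.90. The 10 highest bins ranged from 2.26 to 2.72, the highest being that of Dynlt1f and Sytl3 on chromosome 17 with 21 read pairs against 7.71 (1.69 to 4.17). Next came the bins of Pfdn4 and Cyp24a1 (2.53), Cntfr and Il11ra1 (2.46), Adra2c (2.45), Klk1b24 and Klk1b3 (2.43), Ptpru and Mecr (2.35), Myo18b (2.34), Ehf (2.34), Aktip (2.33) and Lss (2.26). None of the 10 was a gene of the developmental lists.

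The second question was which contacts changed between groups, tested pair by pair with edgeR on the counts of all gene-start bin pairs, with FDR over all of them. All 15 near pairs and 14 of the long-range pairs had the summed count of 20 needed for the test. The contrasts of imminent division and of pre-S with 10 h share the 10 h libraries and are not independent.

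Of the 15 near pairs, 1 was called: Nkx2-4 with Nkx2-2 at imminent division against 10 h, where 1.78% of 186707 gene-start bin pairs under 2 Mb apart were called. These genes, 100 kb apart on chromosome 2, act in the ventral neural tube and, for Nkx2-2, in the pancreas and oligodendrocytes. Their bins had 38 and 86 read pairs after 3 h, 61 and 87 after 10 h, 160 and 194 in imminent division and 90 and 59 in pre-S. Over expected this was 0.748, 0.822, 1.16 and 1.01 by group. The imminent division libraries had the most read pairs of all 8 and were also the deepest. Relative to the offsets the contact rose by a log2 change of 0.61 (FDR = 0.0186, edgeR). The call was lost when any 1 of the 4 libraries of the contrast was left out: without the second imminent division library the log2 change was 0.62 (FDR = 0.131), and over the 4 the FDR ranged from 0.1205 to 0.307. It was also lost with distance offsets, coverage offsets and DESeq2.

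No near pair was called between 10 h and 3 h, pre-S and 10 h, or imminent division and pre-S, where 0%, 0.141% and 0.0953% of all near pairs were called by edgeR; DESeq2 called none either. At an unadjusted p below 0.05, edgeR gave 0 of the 15 for 10 h against 3 h (6.89% of all near pairs), 9 for imminent division against 10 h (19.8%), 2 for pre-S against 10 h (10.8%) and 3 for imminent division against pre-S (10.7%). All 9 of the second contrast were higher at imminent division. The median log2 change of the 15 there was 0.61, against 0.03 over all near pairs. Over all 21539 near pairs with both bins in B the median log2 change was 0.40 in this contrast, against 0.78 for the 7 member pairs of that kind. Pairs with both bins in A had a median of -0.05 over 137205 pairs, against 0.49 for the 6 member pairs. For pre-S against 10 h the order in B was the other way, at 0.25 for the member pairs and 0.34 over all, while in A it was 0.26 and -0.06. For imminent division against pre-S the medians were 0.04 and 0.06 in B and 0.19 and 0.01 in A, and for 10 h against 3 h 0.06 and -0.07 in B and 0.06 and 0.03 in A.

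The 6 Irx genes form 2 clusters of 3, Irx1, Irx2 and Irx4 on chromosome 13 and Irx3, Irx5 and Irx6 on chromosome 8. Irx3 and Irx5 had 11 and 20 read pairs in the 3 h libraries, 20 and 25 in those of 10 h, 55 and 63 in imminent division, and 28 and 19 in pre-S, or 1.15, 1.47, 2.13 and 1.79 over expected. Irx1 and Irx2 had 3 and 17, 13 and 21, 42 and 48, and 14 and 16, or 0.730, 1.11, 1.62 and 1.14. Irx2 and Irx4 had 1 and 5, 9 and 8, 21 and 24, and 13 and 10, or 0.219, 0.556, 0.808 and 0.871. Over expected, these 3 pairs were lowest at 3 h, and Irx1 with Irx2 and Irx3 with Irx5 were highest at imminent division. The other 3 pairs had another order. Irx3 with Irx6 was highest at 3 h (1.75, 1.56, 1.61 and 1.64 by group), while Irx5 with Irx6 (0.698, 0.657, 0.940 and 0.872) and Irx1 with Irx4 (0.709, 0.276, 1.20 and 1.10) were lowest at 10 h and highest at imminent division. Over the 6 pairs within the clusters the ratio was 0.809 (0.677 to 0.959) at 3 h, 0.919 (0.785 to 1.07) at 10 h, 1.32 (1.20 to 1.45) in imminent division and 1.17 (1.01 to 1.35) in pre-S. None passed the test across the genome. The log2 changes at imminent division against 10 h were 2.05 for Irx1 with Irx4 (FDR = 0.151), 0.74 for Irx3 with Irx5 (FDR = 0.195), 0.78 for Irx1 with Irx2 (FDR = 0.271), 0.73 for Irx5 with Irx6 (FDR = 0.282), 0.78 for Irx2 with Irx4 (FDR = 0.545) and 0.22 for Irx3 with Irx6 (FDR = 0.916, edgeR).

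Vax1 and Emx2, which are 300 kb apart on chromosome 19, had 16 and 29 read pairs after 3 h, 18 and 21 after 10 h, 51 and 60 in imminent division and 15 and 21 in pre-S. Over expected this was 0.628, 0.487, 0.785 and 0.566, highest at imminent division, with a log2 change of 0.86 over 10 h that did not pass (FDR = 0.121, edgeR). Six6 and Six4, relatives of the Drosophila eye gene sine oculis, lay below expectation with each other (0.541, 0.517, 0.731 and 0.599 by group). In contrast Six3 with Six2 (0.931 to 1.05), which lie in adjoining bins, stayed near 1 in every group. Nkx6-2 with Msx3 was 0.912, 1.16, 0.747 and 0.821, the lowest at imminent division, with a log2 change against 10 h of -0.44 (FDR = 0.718, edgeR).

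**Figure D5:**
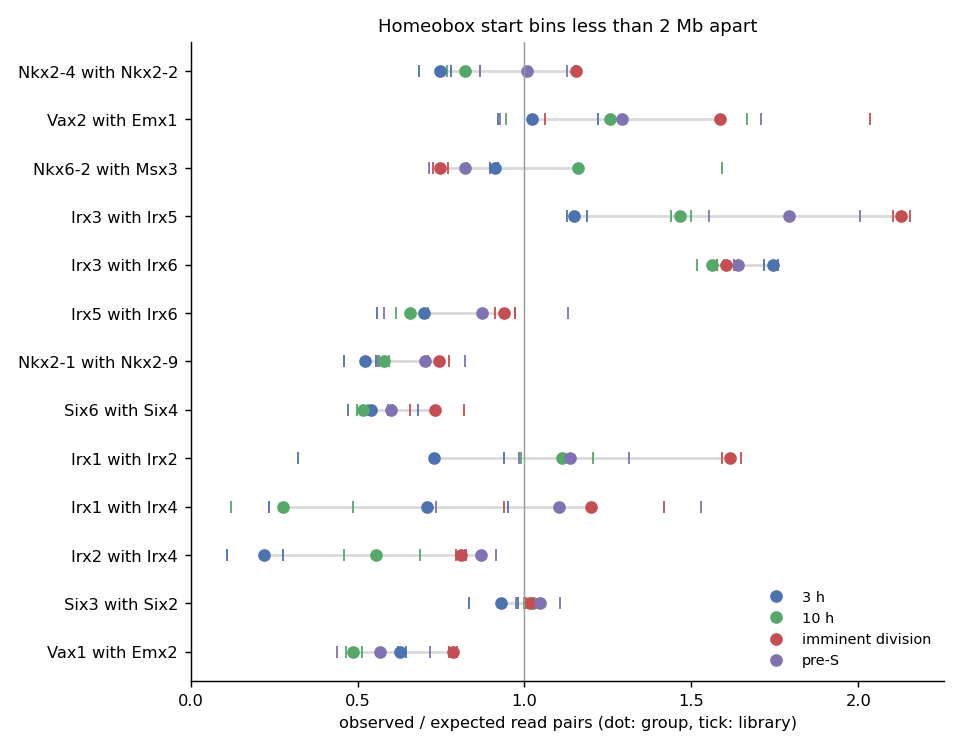
Observed over expected read pairs of 13 pairs of homeobox bins under 2 Mb apart, with a dot for each of the 4 groups and a tick for each library. Irx3 with Irx5 runs from 1.15 at 3 h to 2.13 at imminent division, while Six3 with Six2 stays between 0.931 and 1.05.

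None of the 14 long-range pairs tested was called in any of the 4 contrasts, in which edgeR called 0%, 0.0406%, 0.00122% and 0.00208% of the 575842 pairs of gene-start bins 2 Mb or more apart. DESeq2 called none of the 14 either. At an unadjusted p below 0.05 there were 1 of 14 for 10 h against 3 h (4.32% of all such pairs), 2 for imminent division against 10 h (5.69%), 0 for pre-S against 10 h (5.12%) and 1 for imminent division against pre-S (4.81%). The smallest FDR was that of Msx1 and Nkx3-2, a gene of the skeleton and gut, which lie 3.95 Mb apart on chromosome 5. Their bins had 2 and 1 read pairs in the 3 h libraries, 1 and 3 in those of 10 h, 10 and 14 in imminent division, and 4 and 5 in pre-S. All 33 h libraries were above all early ones in count, and over expected the groups had 0.761, 0.954, 4.22 and 2.59. Of the 40 read pairs of Msx1 and Nkx3-2, 24 fell in imminent division. Without that group the pair would not have reached the summed count needed for the test. Its place among the pairs tested thus rested on the group in which it was highest. The same held, among others, for Lhx2 with Dlx1/Dlx2, with 12 of 23 read pairs in imminent division. The log2 change of imminent division over 10 h was 2.24 (FDR = 0.0976, edgeR), and that of pre-S over 10 h was 1.59 (FDR = 0.778, edgeR).

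The third question was how far each bin reached out, to the whole genome rather than to other members. The share of long-range cis contacts of the member bins had a median of 44.7% and 45.2% after 3 h, 42.8% and 43.6% after 10 h, 37.1% and 36.9% in imminent division and 40.5% and 41.5% in pre-S. The interchromosomal share was 25.8% and 24.9%, 23.9% and 24.5%, 27.9% and 28.1%, and 25.4% and 27.9%. Long-range cis shares were lowest at imminent division, in the members as in all gene-start bins, where they fell from 38.0% and 38.4% at 10 h to 32.0% and 32.0%. The tests below are therefore relative to the typical gene-start bin.

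The long-range cis share passed the edgeR test at FDR 5% in 3 of 52 member bins for 10 h against 3 h (11.8% of all gene-start bins), 27 for imminent division against 10 h (57.6%), 18 for pre-S against 10 h (32.8%) and 10 for imminent division against pre-S (28.0%). The interchromosomal share passed in 1 (4.24%), 21 (45.8%), 15 (30.3%) and 14 (19.4%). As shares of the 52 these were 5.77%, 51.9%, 34.6% and 19.2% for long-range cis and 1.92%, 40.4%, 28.8% and 26.9% between chromosomes, near or below the shares of all gene-start bins except in the last. That last count, 14, was 5 when imminent division replicate 1 was left out and 7 when replicate 2 was, and dropping pre-S replicate 1 or 2 gave 0 or 8. For 10 h against 3 h all of the called member bins were lower in both shares. In the other contrasts calls went both ways relative to the median bin, and without that centring every called member bin was lower in long-range cis share and higher in interchromosomal share.

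Single genes differed in what they did. The bin of Lhx1 gave 45.3% and 45.3% of its contacts to long-range cis at 3 h, 42.3% and 43.8% at 10 h, 30.3% and 31.4% in imminent division, and 35.1% and 34.8% in pre-S. Its interchromosomal share was 25.7% and 23.8%, 23.8% and 24.6%, 32.8% and 32.2%, and 29.6% and 32.5%. All 33 h libraries were apart from all early ones in both. Relative to the typical bin its long-range cis share fell by 0.21 on the log2 scale at imminent division (FDR = 2.81e-14) and by 0.19 at pre-S against 10 h (FDR = 7.35e-09), and its interchromosomal share rose by 0.23 (FDR = 5.96e-12) and 0.25 (FDR = 8.08e-10, all edgeR). This bin also holds the start of Aatf.

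The bin of Dlx3 and Dlx4, genes of skin and placenta among others, changed likewise. Its long-range cis share was 46.5% and 48.6% in the 3 h libraries, 45.2% and 44.6% in those of 10 h, 32.9% and 33.8% in imminent division, and 34.8% and 36.3% in pre-S, and fell by 0.22 on the log2 scale at pre-S against 10 h (FDR = 6.43e-11, edgeR). Its interchromosomal share rose by a log2 change of 0.27 at imminent division (FDR = 2.40e-12) and 0.16 at pre-S (FDR = 0.00132, but 0.0955 without pre-S replicate 2, edgeR), and its compartment score rose by 0.30 at imminent division (FDR = 6.83e-05, limma). The bin of Dlx6 and Dlx5, genes of jaw and limb, went the other way, with an interchromosomal share of 31.2% and 31.5% at 10 h, 30.5% and 30.4% in imminent division and 28.0% and 30.9% in pre-S, a log2 change of -0.24 (FDR = 7.74e-11) and -0.20 (FDR = 5.59e-06, edgeR) relative to the typical bin.

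Nkx2-5, which is needed to form the heart, had low long-range cis shares, at 20.8% and 21.2% after 3 h, 18.1% and 17.9% after 10 h, 12.7% and 12.8% in imminent division and 14.1% and 14.3% in pre-S. It fell by 0.19 on the log2 scale from 3 h to 10 h (FDR = 1.41e-04) and by 0.23 from 10 h to pre-S (FDR = 2.32e-05, edgeR). From 3 h to 10 h no member bin passed with DESeq2, or with TMM factors in place of the offsets. Nkx1-1, a neural gene, fell by 0.15 from 3 h to 10 h (FDR = 2.41e-04) and by 0.24 from 10 h to imminent division (FDR = 7.14e-11, edgeR), and Vax1 fell by 0.25 in the latter (FDR = 1.71e-10, edgeR). The Nkx1-1 call between 3 h and 10 h was lost without 10 h replicate 2 (FDR = 0.0729, edgeR). Six5, which lies beside the myotonic dystrophy gene Dmpk, was the one of the 5 most significant that rose, by a log2 change of 0.18 (FDR = 7.49e-10, edgeR). Its share was 39.9% and 40.6% at 10 h and 37.6% and 38.1% at imminent division, so the rise is relative to the typical bin, whose share fell further.

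Six2 and Six3, genes of the kidney and of the eye and forebrain in adjoining bins, differed between the 33 h groups in the edgeR test. DESeq2 called neither bin in interchromosomal share, and did not call both in long-range cis share. The long-range cis share of Six2 was 38.9% and 38.4% at 10 h, 27.4% and 27.3% in imminent division and 34.1% and 33.1% in pre-S. Imminent division was below pre-S by -0.14 for Six2 (FDR = 7.22e-04) and by -0.15 for Six3 (FDR = 1.95e-04), and above it in interchromosomal share by 0.13 (FDR = 0.00297) and 0.12 (FDR = 0.00775, all edgeR, log2 scale). The interchromosomal call of Six2 was lost without pre-S replicate 1 (FDR = 0.0719), and that of Six3 without imminent division replicate 1 (FDR = 0.0563), pre-S replicate 1 (FDR = 0.0945) or pre-S replicate 2 (FDR = 0.0616, edgeR).

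The compartment score was tested with limma over 23789 bins of 100 kb, in which the 52 member bins fell into 51. It passed in 2 of these 51 for 10 h against 3 h (3.31% of all), 18 for imminent division against 10 h (22.5%), 14 for pre-S against 10 h (25.4%) and 10 for imminent division against pre-S (18.2%). In the second of these the members' share was 35.3%, and without the first imminent division library the count was 11 in place of 18. Vax1, deep in B at 3 h (-0.96 and -0.99) and 10 h (-0.85 and -0.94), was at -0.50 and -0.34 at imminent division and at -0.57 and -0.54 at pre-S, which is towards A by 0.48 (FDR = 1.54e-05) and 0.34 (FDR = 1.58e-04, limma) over 10 h. Its sign did not change.

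Irx5 changed sign, from 0.26 and 0.25 at 3 h and 0.18 and 0.22 at 10 h to -0.11 and -0.14 in imminent division, and was at 0.12 and 0.14 in pre-S. The difference from 10 h was -0.32 (FDR = 2.12e-05, limma). Six6, a gene of the eye and pituitary, did so at pre-S, where it was at -0.08 and -0.13 after 0.06 and 0.17 at 10 h, while it was at 0.19 and 0.24 at imminent division. Pre-S was below 10 h by -0.22 (FDR = 0.00118) and imminent division above pre-S by 0.32 (FDR = 1.30e-04, limma). No other member bin had 1 sign in both libraries of a group and the other sign in both libraries of the group it was compared with.

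Lhx6, an interneuron gene, and Nkx3-2 moved towards B without reaching it. Lhx6 went from 0.97 and 0.98 at 10 h to 0.66 and 0.65 at imminent division (-0.32, FDR = 2.55e-05) and 0.76 and 0.74 at pre-S (-0.22, FDR = 3.25e-04). Nkx3-2 went from 0.43 and 0.45 to 0.15 and 0.16 (-0.28, FDR = 4.53e-05) and 0.22 and 0.22 (-0.22, FDR = 2.71e-04, all limma). Between 3 h and 10 h, Nkx2-2 fell by 0.19, from 0.41 and 0.40 to 0.20 and 0.23 (FDR = 0.00858, limma), and was at 0.01 and 0.06 at imminent division. The call between 3 h and 10 h was lost without 10 h replicate 1 (FDR = 0.123) or replicate 2 (FDR = 0.0595, limma). The Nkx2-2 bin, whose contact with the Nkx2-4 bin was the one called, was thus at its lowest score at imminent division.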

How the data were processed

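In situ HiC was measured in 8 libraries of LPS-activated mouse B cells, 2 biological replicates for each of 4 groups taken from the labels. The members and the comparison lists were chosen with earlier results of these data known. Each of the 8 deposited files holds unscaled counts of read pairs between 50 kb bins for 1 library. They were made by the authors, who used diffHic on reads aligned to mm10 and took out duplicates and dangling ends. The matrices name no coordinates, so the bins were rebuilt from MboI fragments of GRCm38, the assembly of mm10. No column of other samples was present (0), and the depth is given in the report. Of 48088 autosomal bins, 756 with over 10% undetermined sequence or an interchromosomal coverage over 4 times, or under 1/4 of, the median were left out.

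Bin pairs with both bins holding a gene start and a summed count of at least 20 were compared in edgeR 4.0.16 (R 4.3.3), by a robust quasi-likelihood fit (legacy, trended dispersion) of a one-way layout over all 8 libraries. Offsets came from a loess of log count on average abundance, apart for pairs under 1.5 Mb. Long-range cis and interchromosomal counts per gene-start bin (at least 200 in all) were tested likewise, with the bin's total off-diagonal count as offset, centred on the median bin. The compartment score, the first principal component at 100 kb, was tested with limma 3.58.1. FDR is by the Benjamini-Hochberg method over all features tested, at 5%. Summed ratios and intervals (exact Poisson, 95%) were computed in Python 3.11.15. They cover counting error only, and 3 counts were taken as the limit that a count of 0 allows.

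Named were the 8 long-range cis pairs with the highest ratio among those with at least 5 expected read pairs, up to 8 interchromosomal pairs with at least 5 read pairs, up to 5 called members per contrast and test with the smallest p, all pairs under 2 Mb, and the 10 other gene-start bins with the highest ratio to the set. Any other pair with values was chosen after they were seen. A few items that this rule names, and a marker of the sort gates, are not reported here. Alternatives were DESeq2 1.42.0, TMM, distance and coverage offsets, count minimums of 10 and 50, a replicate block, leaving out each library, distance limits of 1 and 5 Mb, 250 kb compartments, expected counts by compartment quintile or coverage, and windows of 3 by 3 bins. Replicate numbers were not taken as pairs, since deviations of libraries with the same number correlated between -0.045 and 0.045. Replicates were separate biological samples per the labels, 2 per group. The p-values rest on the spread between replicates pooled over all 4 groups, with information shared between features.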

Additional observations from a re-analysis of the deposited data

How the results depend on the processing

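Of 436 alternative values of 31 results, 348 were taken as unchanged. For log2 changes, mean ratios and differences this meant the same direction and side of the threshold, or a move smaller than the spread. For counts of called members it meant a count within the fold limit used below, or no call in either. The 348 therefore include counts of member pairs with no call in the main test and none under any alternative. These were long-range pairs in every contrast and near pairs in every contrast except imminent division against 10 h. The 348 also include differences of group mean ratios with a library of neither group left out. Those values could not change. The cause of the changes below was not tested. The expected count per interchromosomal pair was 0.305 over 8 libraries, so no single pair of that kind could be compared between groups at this depth.

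The rise of Nkx2-4 with Nkx2-2 at imminent division (log2 change 0.61 over 10 h) had FDR = 0.0229 with a replicate block, which left the log2 change at 0.61 and called 2879 near gene-start bin pairs in place of 3317. The block changed no other member pair's call and moved no count of called member bins by over 1.5 times. The call was lost with distance offsets (0.49, FDR = 0.0793), coverage offsets (0.53, FDR = 0.0737) and DESeq2 (0.83, FDR = 0.106), and leaving out 1 library gave 0.53 to 0.70. TMM called 9 of the 15 near member pairs (10224 of all near pairs), coverage offsets 3 (4590), a count of at least 50 gave 3 (8725), and distance offsets (6886) and DESeq2 (160) 0.

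Member bins called for the long-range cis share, in the order 10 h against 3 h, imminent division against 10 h, pre-S against 10 h and imminent division against pre-S, were 12, 51, 34 and 49 without centring on the median bin, and all 51, 34 and 49 of the last 3 were lower. DESeq2 called 0, 12, 7 and 1 and TMM factors 0 and 21 in the first and last. For the interchromosomal share these were 0 and 44 in the first 2 without centring, 0, 9, 4 and 0 by DESeq2, and 0, 10 and 8 with TMM factors in the first, second and last. For the compartment score, quantile normalization called 5 and 250 kb bins 7 in the first, and 250 kb bins 16 in the last. Shares of all bins called under these alternatives are not given here. These counts therefore do not set the members apart from other bins. Without 1 library the counts were 1 to 3, 18 to 27, 9 to 18 and 7 to 10 for the long-range cis share, 0 to 1, 13 to 21, 7 to 15 and 0 to 14 for the interchromosomal share, and 0 to 9, 11 to 22, 9 to 20 and 4 to 20 for the compartment score. Libraries whose loss moved a count by over 1.5 times were, for the long-range cis share, 10 h replicate 2 (1 in the first contrast) and pre-S replicate 1 (9 in the third). For the interchromosomal share they were each 3 h and 10 h library (0 in the first), imminent division replicate 1 (13 in the second), 10 h replicate 2 (9) and pre-S replicate 2 (7 in the third), and each library of the last. For the compartment score they were each 10 h library (0) and 3 h replicate 2 (9) among others in the first, each 10 h and pre-S library (9 in the third), and, in the last, both 3 h libraries (20), imminent division replicate 2 (4), pre-S replicate 1 (5) and pre-S replicate 2 (6).

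The mean long-range cis ratio over libraries, 1.60, was 1.39 by compartment quintile, 1.25 with long-range cis coverage and 1.07 over its surroundings. It was 1.55 to 1.64 without 1 library. Imminent division minus 10 h, 0.403, was 0.0925 in windows of 3 by 3 bins, 0.234 beyond 5 Mb, 0.227 over the surroundings and 0.327 to 0.479 without 1 library. Pre-S minus 10 h, 0.192, was 0.0182 in the windows and 0.0730 to 0.312 without 1 library. Imminent division minus pre-S, 0.211, was 0.0666 by quintile, 0.0759 with coverage, 0.0743 in the windows and 0.0914 to 0.330 without 1 library. The difference of 10 h and 3 h, 0.0254, turned to -0.0333 without the pair of highest ratio, an alternative chosen after seeing the data, and ran from -0.0763 (without 3 h replicate 2) to 0.127 without 1 library, and was -0.0499 without 10 h replicate 1.

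Between chromosomes the mean of 1.32 was 1.09 over the surroundings and 1.27 to 1.35 without 1 library. In the windows, 10 h minus 3 h turned from -0.0845 to 0.0199 (-0.127 to -0.0421 without 1 library), imminent division minus pre-S from 0.0903 to -0.0278 (-0.132 without imminent division replicate 1 to 0.313 without replicate 2), and imminent division minus 10 h went from 0.339 to 0.0832 (0.117 to 0.562). Pre-S minus 10 h was 0.201 to 0.297 without 1 library.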

Other observations

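Near pairs of 1 homeobox bin and 1 bin of another gene had values close to those of all near pairs. At imminent division against 10 h their median log2 change was 0.09 over 1261 pairs, 16 (1.27%) were called by edgeR and 18.8% had an unadjusted p below 0.05, against 1.78% and 19.8% of all near pairs. This comparison was chosen after the values were seen and carries no test.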
